A study of Mus musculus with 4 samples.

Results

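The Serpin and Spink genes encode protease inhibitors of unrelated folds that share a task. They were taken as every symbol of the deposited expression table that starts with Serpin or with Spink. This gave 61 of the 9997 distinct symbols: 18 Serpina, 27 Serpinb, 6 other Serpin and 10 Spink genes. The rule uses gene names and no measured value, though the family was picked with earlier results of these data known.

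RNA was sequenced from 4 libraries of embryoid bodies, which are free-floating clumps of differentiating cells, grown from ES-E14TG2a, a line of mouse embryonic stem cells. The control library came from embryoid bodies without a named treatment. The other 3 came from embryoid bodies given all-trans retinoic acid (ATRA), a vitamin A derivative that pushes such cells towards neural fates, and are labelled 0, 6 and 10 days. ATRA (5 µM) was added on the 4th and again on the 6th day of suspension culture, in medium with fetal bovine serum, and after 8 days in suspension the bodies were plated on poly-ornithine and laminin. The labels do not say from which day the 3 stages count or how old the control was, so ATRA and culture age cannot be told apart in comparisons with the control.

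Levels are FPKM, fragments scaled to transcript length and to the mapped fragments of the library, so genes can be compared per length. Each group is 1 library: no difference has a replicate check, and no test, SD or p-value was possible. Differences are taken on log2(FPKM + 1), and a gene is called higher or lower where that difference is 1 or more, which is 2-fold. The added 1 shrinks the differences of low genes. Depth, estimated from the smallest values, was between 24500000 and 27300000 fragments a library. A transcript of 1 kb needed 0.110 to 0.122 FPKM to rest on 3 fragments. The 95% intervals given below are exact Poisson intervals on the estimated fragments of the longest annotated transcript, and cover counting error only.

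Serpins trap their target. The protease cuts an exposed loop of the inhibitor, the serpin springs into another shape, and both stay locked together. Serpina genes encode mostly secreted plasma proteins of the antitrypsin type, many made by liver and by the yolk sac endoderm, while Serpinb proteins stay mostly inside cells. Spink proteins carry Kazal domains, small disulfide-bonded folds that plug the active site of trypsin-like enzymes. Some serpins, such as Serpina6 and Serpinf1, inhibit no protease and act as a hormone carrier or a secreted factor.

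Of the 61 genes, 22 reached 1 FPKM in at least 1 library and 12 reached 5 FPKM. Only 5 stood at 1 FPKM or more in all 4 libraries: Serpinb6a, Serpinb6c, Serpinb9b, Serpine2 and Spink1. The other 17 passed through 1 to 3 libraries in which they were high, so counts over the 22 describe them and support nothing. The remaining 39 genes stayed below 1 FPKM everywhere, with a highest value of 0.951 FPKM (Serpina1d at 10 days), and 6 of them were listed at 0 in all 4 libraries. Of the 61 genes, 29 were listed at 0 in the control library, and 34, 16 and 14 in the 0-day, 6-day and 10-day libraries.

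The 6-day and 10-day libraries held most of the family's transcripts. The summed level of the 61 genes was 139 FPKM in the control, 116 FPKM at 0 days, 1427 FPKM at 6 days and 2322 FPKM at 10 days. Spink1 alone made up 18.7%, 15.2%, 78.6% and 82.9% of these sums. Without the Spink genes, the 51 Serpin genes summed to 113, 98.4, 306 and 398 FPKM. The make-up of the Serpin sum also shifted: Serpinb genes held 92.7% of it in the control and 46.2%, 66.3% and 63.6% in the 3 ATRA libraries in order of time. Serpina genes held 0.716%, 0.552%, 9.17% and 11.8%, and the other Serpin genes 6.62%, 53.3%, 24.5% and 24.6%. In bulk RNA, fewer cells of a type and less RNA per cell cannot be told apart.

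**Figure D1:**
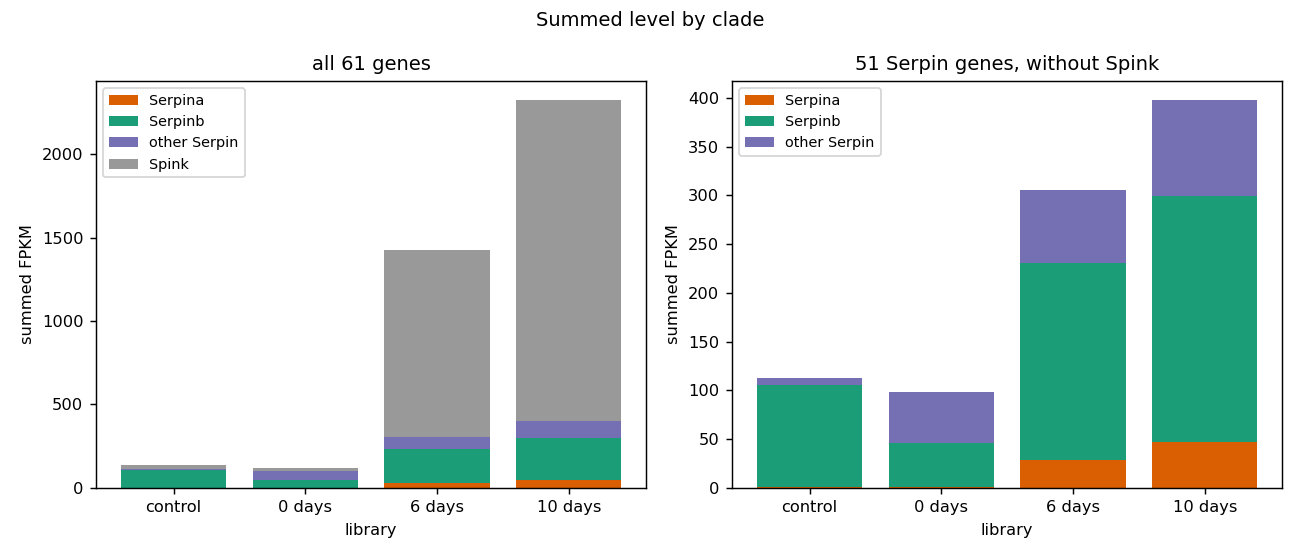
Summed FPKM of the Serpin and Spink genes in each library, stacked by clade, for all 61 genes and for the 51 Serpin genes. The Spink part is nearly all Spink1, and without it the Serpin sum goes from 98.4 FPKM at 0 days to 306 and 398 FPKM at 6 and 10 days.

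At 0 days against the control, 3 of the 22 genes that passed the filter were higher (13.6%) and 1 was lower (4.55%), beside 12.2% and 12.8% of all 5885 genes that passed it. The share of higher genes is near its background. At 6 against 0 days, 15 of the 22 were higher (68.2%) and 1 lower, beside 8.22% and 4.88%. At 10 against 6 days, 3 were higher and none lower, beside 3.7% and 0.85%. Since the filter favours genes that differ, the shares were also taken with no filter. Over all 61 genes, 4.92%, 24.6% and 4.92% were higher at the 3 steps, beside 7.2%, 4.84% and 2.18% of all 9997 symbols. Lower were 1 gene, 1 gene and none, beside 7.52%, 2.87% and 0.5% of all symbols.

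Against the control, 15 of the 22 genes were higher at 6 days and 19 at 10 days, and none was lower (background among the 5885 genes: 15.3% and 19.6% higher, 12.5% and 17.1% lower). At 10 against 0 days 19 of the 22 were higher and none lower (background 14.4% and 7.6%). With no filter, 24.6%, 31.1% and 31.1% of the 61 genes were higher in these 3 comparisons, beside 9.03%, 11.6% and 8.48% of all symbols, of which 7.34%, 10.1% and 4.47% were lower. These comparisons share libraries with the steps and are no separate evidence. Of the 22 genes that passed the filter, 17 had their highest level at 10 days (background 29.6%), 3 at 6 days (9.65%), 1 at 0 days (22.5%) and 1 in the control (38.2%). The 5 exceptions are Serpinb9e, Serpinb9f and Serpinb9g, highest at 6 days, Serpinf1, highest at 0 days, and Serpinb6c, highest in the control.

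**Figure D2:**
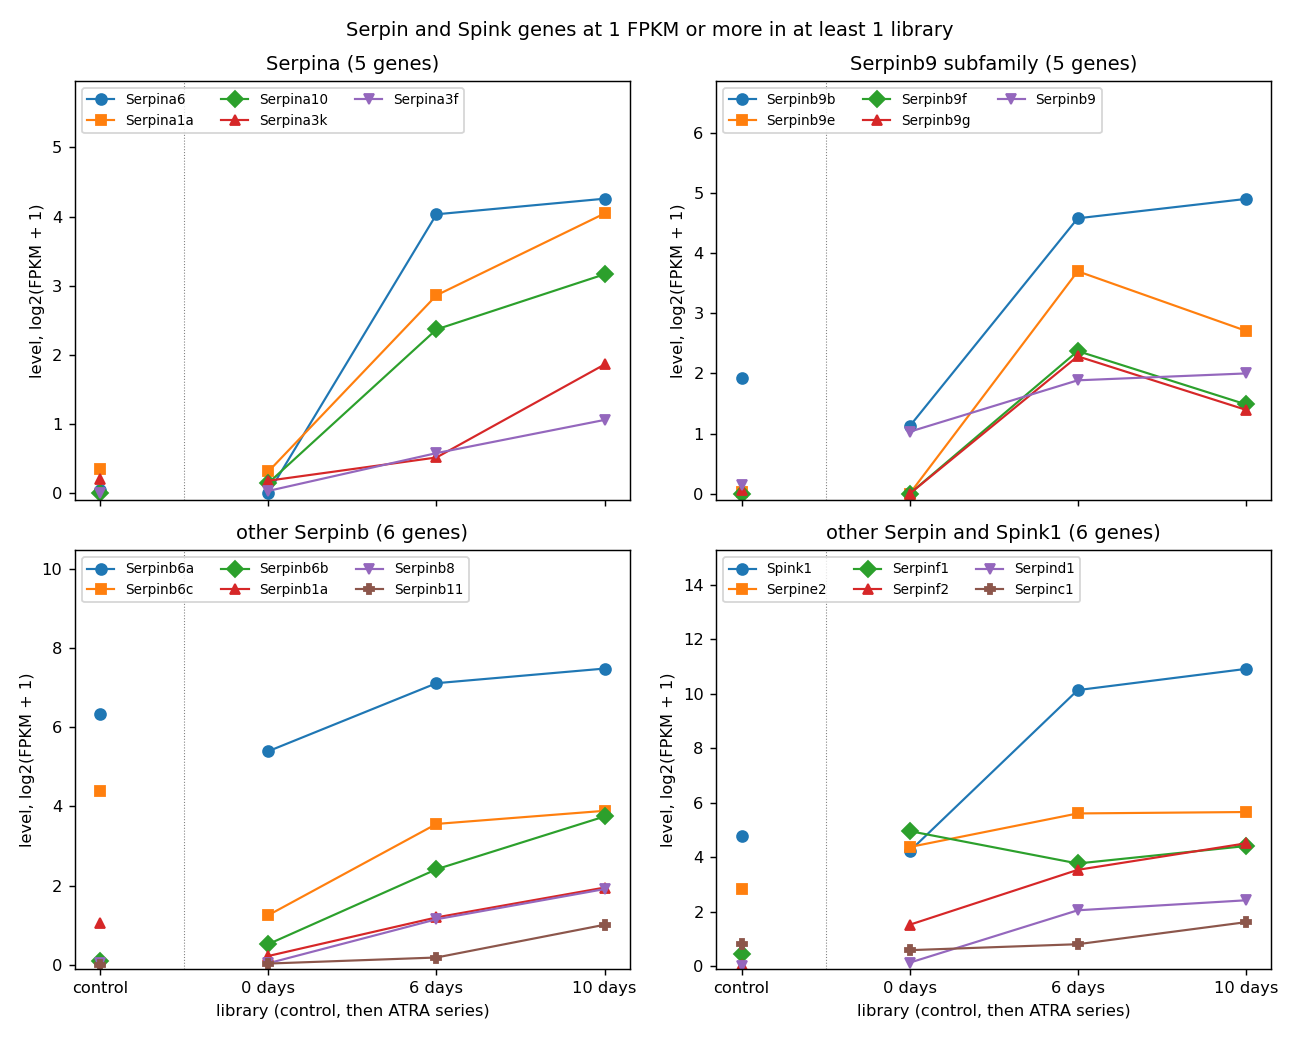
Level of the 22 genes at 1 FPKM or more, on log2(FPKM + 1), in the control (left of the dotted line) and in the ATRA libraries at 0, 6 and 10 days, 1 point per library. Most lines climb from 0 to 6 and 10 days, while Serpinb9e, Serpinb9f and Serpinb9g turn down after 6 days and Serpinf1 starts high at 0 days.

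**Figure D3:**
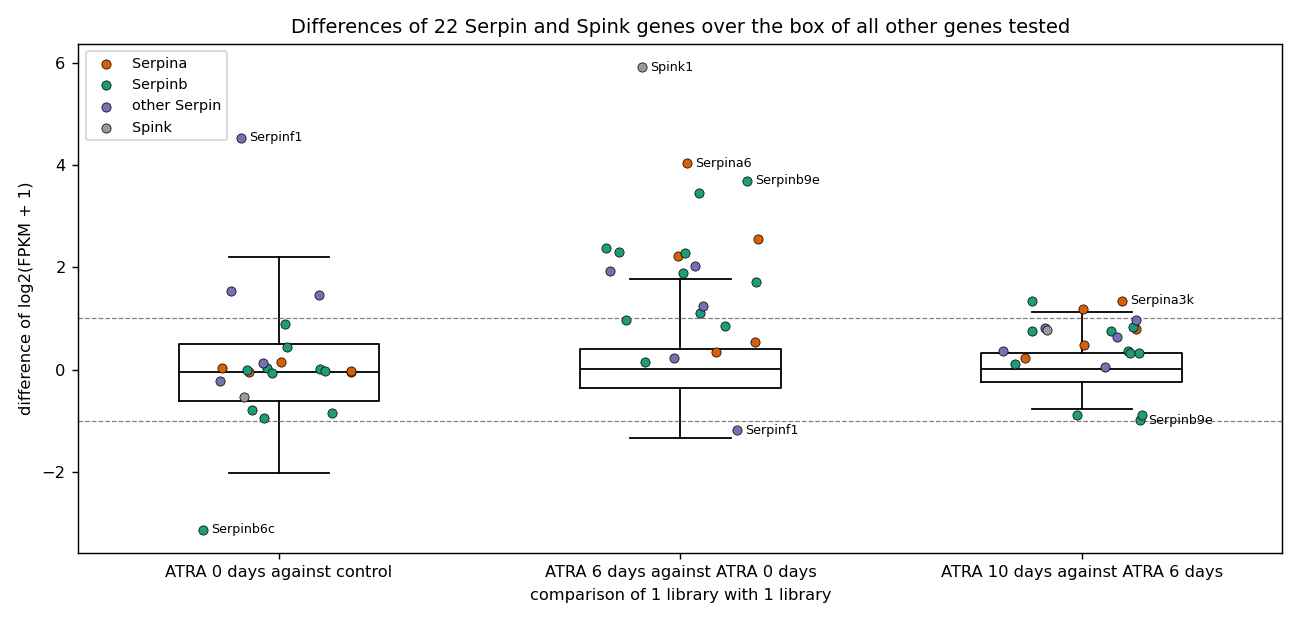
Differences on log2(FPKM + 1) for the 3 successive steps, with the 22 genes as points coloured by clade over a box of the 5863 other genes tested (median and quartiles, with whiskers that span the central 95%). Dashed lines mark 2-fold, and most points of the middle step lie above the upper line, with Spink1 at 5.91.

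Promoters are shown for 7 genes whose patterns the results turn on: 4 Serpinb9 relatives that share a chromosome block but split by time course, Serpina1a of the secreted clade, and the neighbours Serpinf1 and Serpinf2, which differ at 0 days. Each sequence runs from 250 bases before to 50 bases after the RefSeq start, 5′ to 3′ on the gene's own strand. Matches on either strand to 8 motifs are in capitals. The motifs were TATAAA of the core promoter, AGATAA of the Gata4 and Gata6 type of zinc finger factors, GTTAAT of the liver factor HNF1 and AGGTCA of the nuclear receptors. The others were TGANTCA of the AP-1 family, CACGTG of the USF and Myc proteins, ACAATG of the Sox family and TGTTTAC of the Fox family. No match in the windows shown overlaps another. In RefSeq on GRCm38.p6 (mm10) the windows of the 4 Serpinb9 genes lie on the plus strand at chr13:33027164-33027463 (Serpinb9b), chr13:33249358-33249657 (Serpinb9e), chr13:33323827-33324126 (Serpinb9f) and chr13:33484540-33484839 (Serpinb9g).
Serpinb9b: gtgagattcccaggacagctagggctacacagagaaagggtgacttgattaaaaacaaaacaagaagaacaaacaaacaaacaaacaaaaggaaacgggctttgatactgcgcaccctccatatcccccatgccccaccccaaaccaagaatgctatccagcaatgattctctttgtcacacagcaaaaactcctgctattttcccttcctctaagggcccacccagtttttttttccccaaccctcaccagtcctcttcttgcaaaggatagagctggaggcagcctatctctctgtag
Serpinb9e: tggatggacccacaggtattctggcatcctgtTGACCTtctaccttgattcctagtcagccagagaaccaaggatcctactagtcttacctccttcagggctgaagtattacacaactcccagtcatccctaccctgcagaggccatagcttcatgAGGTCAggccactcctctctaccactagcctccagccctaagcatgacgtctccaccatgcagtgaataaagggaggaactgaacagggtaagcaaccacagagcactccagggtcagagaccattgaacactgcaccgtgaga
Serpinb9f: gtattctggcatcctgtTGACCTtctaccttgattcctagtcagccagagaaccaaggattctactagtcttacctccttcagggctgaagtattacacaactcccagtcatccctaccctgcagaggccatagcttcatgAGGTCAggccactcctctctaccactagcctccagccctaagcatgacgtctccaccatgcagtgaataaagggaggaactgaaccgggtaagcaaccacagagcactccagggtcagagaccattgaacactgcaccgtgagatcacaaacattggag
Serpinb9g: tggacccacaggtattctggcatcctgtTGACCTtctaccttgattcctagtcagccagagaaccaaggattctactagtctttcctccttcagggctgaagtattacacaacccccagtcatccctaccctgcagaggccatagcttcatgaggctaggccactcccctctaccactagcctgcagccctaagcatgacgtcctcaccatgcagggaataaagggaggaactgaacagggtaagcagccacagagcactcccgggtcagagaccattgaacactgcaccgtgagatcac
The windows of Serpinb9e and Serpinb9f were identical at 99.3% of aligned bases, and Serpinb9g matched them at 95.9% and 95.8%. Serpinb9b matched the 3 at 45.2% to 52.2%, and none of the 8 motifs occurred in its window. AGGTCA, the core site that retinoic acid receptors and other nuclear receptors bind, occurred at 2 places in Serpinb9e and Serpinb9f and at 1 in Serpinb9g.

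The remaining windows lie on the minus strand, at chr12:103863570-103863869 (Serpina1a), chr11:75422574-75422873 (Serpinf1) and chr11:75439452-75439751 (Serpinf2).
Serpina1a: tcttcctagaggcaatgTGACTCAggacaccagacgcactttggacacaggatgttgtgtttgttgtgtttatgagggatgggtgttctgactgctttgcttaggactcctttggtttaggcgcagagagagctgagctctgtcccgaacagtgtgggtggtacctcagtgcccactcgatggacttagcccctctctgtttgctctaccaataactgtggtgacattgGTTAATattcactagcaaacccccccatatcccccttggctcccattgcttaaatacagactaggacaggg
Serpinf1: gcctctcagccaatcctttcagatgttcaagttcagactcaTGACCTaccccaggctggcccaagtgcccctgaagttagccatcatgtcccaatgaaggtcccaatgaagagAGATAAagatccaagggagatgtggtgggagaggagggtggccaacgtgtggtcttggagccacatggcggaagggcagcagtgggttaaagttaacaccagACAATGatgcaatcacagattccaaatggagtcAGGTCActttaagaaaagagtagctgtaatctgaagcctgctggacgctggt
Serpinf2: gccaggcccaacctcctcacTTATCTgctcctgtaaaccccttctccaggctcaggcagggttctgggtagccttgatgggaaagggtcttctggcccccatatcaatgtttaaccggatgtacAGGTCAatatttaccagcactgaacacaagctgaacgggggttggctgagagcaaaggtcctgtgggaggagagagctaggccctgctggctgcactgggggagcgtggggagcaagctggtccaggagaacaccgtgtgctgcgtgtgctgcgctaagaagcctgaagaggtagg
Serpina1a held a match to GTTAAT, a part of the site of the liver factor HNF1, 21 bases before the start, and a match to TGANTCA, the AP-1 site. Serpinf1 held AGGTCA at 2 places and single matches to the zinc finger and Sox motifs. Serpinf2 held AGGTCA at 1 place and a single match to the zinc finger motif. Such matches are letters only, and do not show binding.

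RefSeq promoters were found for 43 of the 61 genes. AGGTCA occurred in 17 of them (39.5%), against 18.1% of the 27025 genes with a promoter in the same table. Of these 17, only Serpinb9e, Serpinb9f, Serpinb9g, Serpind1, Serpinf1 and Serpinf2 reached 1 FPKM in any library. TATAAA occurred in 13 (30.2% against 15.7%), TGANTCA in 9 (20.9% against 8.97%), AGATAA in 8 (18.6% against 12.7%), GTTAAT in 6 (14.0% against 8.24%) and ACAATG in 6 (14.0% against 14.3%). CACGTG and TGTTTAC occurred in none of the 43, against 8.09% and 4.05% of all genes. Close copies share promoter sequence, as the Serpinb9 windows show, so these genes are not independent of each other.

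Spink1, the secreted trypsin inhibitor first known from pancreatic juice, was the most abundant of all 61 genes at 6 and 10 days (mm10 chromosome 18, 43728082 to 43737557, minus strand). It stood at 26.1 FPKM in the control, 17.6 FPKM at 0 days, 1122 FPKM at 6 days and 1924 FPKM at 10 days. The last value has a counting interval of 1905 to 1944 FPKM. Its transcript is short, at 729 nt, and FPKM of short transcripts depends on how fragment length was modelled. Among the 9997 symbols Spink1 ranked 1590th in the control, 1914th at 0 days, 56th at 6 days and 46th at 10 days. Thus the control and the 0-day library held a moderate level, and the 6-day and 10-day libraries a very high one. The other 9 Spink genes stayed at 0.405 FPKM or below. The highest of them was Spink10, at 0.405 FPKM in the control and 0.0700 to 0.122 FPKM in the ATRA libraries, and it overlaps Spink7 and Spink13 on the opposite strand. Spink7, Spink12 and Spink14 were listed at 0 in all 4 libraries, and Spink5, the skin inhibitor of kallikreins, did not pass 0.0599 FPKM.

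Among the Serpina genes, 3 passed 5 FPKM, and each was near or at 0 in the control and at 0 days. Serpina6 encodes corticosteroid-binding globulin, the plasma carrier of glucocorticoids (chromosome 12, 103646630 to 103657212). It stood at 0.0287 FPKM in the control, was listed at 0 at 0 days, and stood at 15.4 FPKM at 6 days and 18.1 FPKM at 10 days. The counting intervals at 6 and 10 days, 14.2 to 16.6 and 16.9 to 19.4 FPKM, did not overlap, though their log2 difference was 0.23. Serpina1a, an alpha-1 antitrypsin gene whose human counterpart restrains neutrophil elastase (103853589 to 103863562), stood at 0.273, 0.239, 6.26 and 15.5 FPKM in the same order. Serpina10, which encodes the protein Z-dependent inhibitor of coagulation factor X (103614786 to 103631444), was listed at 0 in the control and stood at 0.104, 4.16 and 7.97 FPKM at 0, 6 and 10 days. All 3 genes thus had their highest level at 10 days and the next at 6 days, but their time courses differed. Serpina6 was near its full level by 6 days, and Serpina1a was 1.18 higher (log2) at 10 than at 6 days.

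Further Serpina genes were low. Serpina3k, of the group related to antichymotrypsin, stood at 0.151, 0.130, 0.426 and 2.63 FPKM, and was called higher at 10 against 6 days (1.35). Serpina3f was listed at 0 in the control and reached 1.08 FPKM at 10 days. The remaining 13 Serpina genes stayed below 1 FPKM, and 1 of them, Serpina3c, was listed at 0 throughout. Copies limit these values. The coding sequence of Serpina1a is identical at 98.5% of aligned bases to Serpina1c, and that of Serpina3k at 91.8% to Serpina3m, and neither partner was analysed here. Serpina3f likewise matches Serpina3i at 91.3%, and Serpina1d matches Serpina1c at 96.7%. How the authors' counting split such reads cannot be seen, so single values of all these genes are uncertain.

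Liver-type and visceral endoderm markers were, like the Serpina genes, higher at 6 and 10 days. Of 21 such markers the table held 9, and all of them passed the filter. Their summed level was 34.0 FPKM in the control, 78.8 FPKM at 0 days, 596 FPKM at 6 days and 877 FPKM at 10 days, with none at 0 in any library. At 0 days against the control 5 of the 9 were higher and 1 lower (median 1.07, log2), beside 12.2% and 12.8% of all 5885 genes. The 5 Serpina genes that passed the filter stood at 0.273 FPKM or below in both of these libraries. On log2(FPKM + 1) none of them could be called there (median -0.03), so they cannot be compared with the markers at this step. At 6 against 0 days 8 of the 9 were higher and none lower (background 8.22% and 4.88%). The highest at 10 days were Ttr, the thyroid hormone carrier transthyretin, at 356 FPKM, and Dab2, an adaptor protein of endocytosis, at 161 FPKM. The parietal endoderm markers (8 of 13 in the table) summed to 283, 471, 2927 and 4031 FPKM. Sparc alone gave 1862 FPKM of this sum at 6 days and 2711 FPKM at 10 days. At 6 against 0 days 7 of the 8 were higher and 1, Sox7, was lower (-1.67, log2). Simple epithelium markers (7 of 8) summed to 204, 374, 2408 and 4054 FPKM, and no marker of either list was at 0. The part of these cell types in the Serpina and Spink1 levels was not tested.

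The Serpinb genes lie in 2 blocks, and nearly all of their transcripts came from the block on chromosome 13 (32842092 to 34002794). It holds 15 genes of the table, of which 9 passed the filter, and 7 of these were higher at 6 than at 0 days (background 8.22%, or 4.84% with no filter). Of these 7, Serpinb6b, Serpinb9e, Serpinb9f and Serpinb9g passed the filter only through the 6-day and 10-day libraries, so the count is a description. Of the 12 genes in the block on chromosome 1 (106861173 to 107610484), 2 passed, and 1 was higher. These were Serpinb8, which can inhibit the proprotein convertase furin, at 0.0250, 0.0283, 1.22 and 2.76 FPKM, and Serpinb11, listed at 0 in the control and at 1.02 FPKM at 10 days. Serpinb5 (maspin), of breast and other epithelia, did not pass 0.246 FPKM. The squamous cell antigen genes Serpinb3a to Serpinb3d did not pass 0.0337 FPKM, and Serpinb3b and Serpinb3c were listed at 0 throughout. Squamous epithelium markers (8 of 10 in the table) summed to 8.07, 4.21, 29.3 and 42.5 FPKM.

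**Figure D4:**
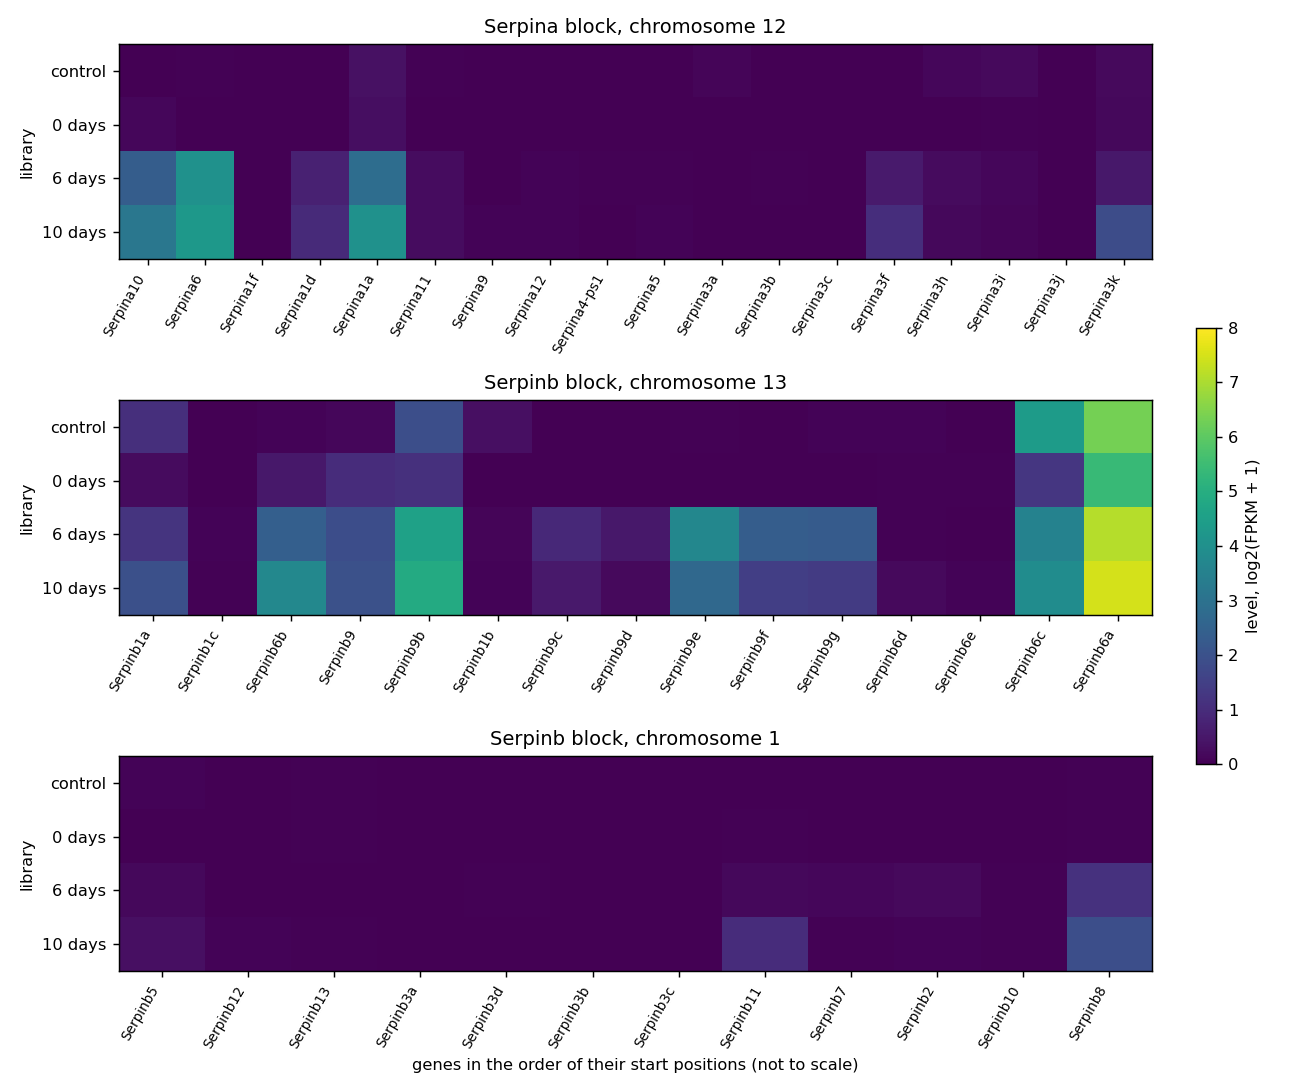
Level on log2(FPKM + 1), as colour, of each gene of the Serpina block and of the 2 Serpinb blocks in the 4 libraries, with genes in the order of their start positions. In the chromosome 13 block Serpinb6a and Serpinb6c stand out in all or most libraries at one end, and Serpinb9b and Serpinb9e to Serpinb9g are bright at 6 and 10 days in the middle, while the chromosome 1 block is dark but for Serpinb8 and Serpinb11.

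The Serpinb6 genes, intracellular inhibitors of trypsin-like enzymes and cathepsin G, lie towards opposite ends of the chromosome 13 block and did not share a pattern. Serpinb6a (33917918 to 34002794) was the highest Serpin gene in every library, at 79.9 FPKM in the control, 41.1 FPKM at 0 days, 137 FPKM at 6 days and 178 FPKM at 10 days. It held between 67.8% and 90.4% of the summed Serpinb level. It was 1.72 higher (log2) at 6 than at 0 days, and the lower value at 0 days than in the control (-0.94) missed 2-fold. Its neighbour Serpinb6c (33879816 to 33905708) stood at 19.9, 1.39, 10.8 and 13.8 FPKM, and so was lower at 0 days than in the control (-3.13, log2), the 1 gene of the family called lower in that step. It came back by 2.30 at 6 days. Serpinb6b, towards the other end of the block (32965209 to 32979067), stood at 0.0609, 0.438, 4.33 and 12.4 FPKM, climbing at each step, with 1.89 at 6 against 0 days and 1.33 at 10 against 6 days. The control thus held much Serpinb6c and almost no Serpinb6b, and the 10-day library held both at similar levels. Their coding sequences match at 86.2% to 87.7% of aligned bases. Serpinb6a overlaps Nqo2, Ripk1 and 1110046J04Rik on the opposite strand, and whether counting used strand is not known here. Nqo2 stood between 2.96 and 8.45 FPKM and Ripk1 between 3.47 and 4.88 FPKM. The part of the overlap in the Serpinb6a level was not tested. Serpinb6d and Serpinb6e did not pass 0.147 FPKM.

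Serpinb9 inhibits granzyme B, the killing enzyme of cytotoxic lymphocytes, and rodents carry extra copies of it. Serpinb9 itself (33003250 to 33017957) stood at 0.102 FPKM in the control, 1.04 FPKM at 0 days, 2.69 FPKM at 6 days and 3.00 FPKM at 10 days. Neither of its steps up to 6 days reached 2-fold on this scale (0.89 and 0.85), and together they made 1.75. Serpinb9b (33027416 to 33041884) was the most abundant copy, at 2.78, 1.18, 22.9 and 28.8 FPKM, and was 3.46 higher (log2) at 6 than at 0 days. Its levels at 6 and 10 days differed by less than 2-fold (0.32), though the counting intervals of 21.9 to 23.9 and 27.7 to 30.0 FPKM did not overlap.

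Serpinb9e, Serpinb9f and Serpinb9g had their highest level at 6 days, unlike Serpinb9 and Serpinb9b. Serpinb9e (33249612 to 33260850) stood at 0.0233 FPKM in the control, was listed at 0 at 0 days, and stood at 11.97 FPKM at 6 days and 5.54 FPKM at 10 days. Serpinb9f (33324077 to 33335370) had a listed value of 0 in the control and at 0 days, with 4.17 and 1.80 FPKM at 6 and 10 days. Serpinb9g (33484790 to 33496004) had 0.0478 FPKM in the control, a listed value of 0 at 0 days, and 3.87 and 1.63 FPKM after that. All 3 were thus lower at 10 than at 6 days by similar amounts, with ratios of FPKM of 0.462, 0.431 and 0.421, which are past 2-fold. On log2(FPKM + 1) the differences were -0.99, -0.89 and -0.89, and only the added 1 keeps them from being called. With a pseudocount of 0.1 or 0.5 all 3 were called lower. The counting intervals of Serpinb9e were 11.02 to 12.99 and 4.92 to 6.21 FPKM and did not overlap. Serpinb9d, at 0.438 and 0.145 FPKM, and Serpinb9c, at 0.895 and 0.453 FPKM, had the same order at low levels.

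The coding sequences of Serpinb9d, Serpinb9e, Serpinb9f and Serpinb9g match each other at 94.3% to 98.7% of bases, closest between Serpinb9f and Serpinb9g. Fragments can fit several of them, and their single values are uncertain, so they were also summed. The sum of the 4 was 0.0711 FPKM in the control, 0 at 0 days, 20.5 FPKM at 6 days and 9.11 FPKM at 10 days. Its log2 difference at 10 against 6 days was -1.085, past 2-fold. Serpinb9b matches Serpinb9e, Serpinb9f and Serpinb9g at 78.9% to 79.9% only.

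Trophoblast markers were also higher in sum at 6 and 10 days, though not in the same order. Of 20 markers 16 were in the table, and they summed to 0.655 FPKM in the control, 0.286 FPKM at 0 days, 62.7 FPKM at 6 days and 159 FPKM at 10 days. At 0 days 11 of the 16 were listed at 0, among them Tpbpa, a marker of the spongiotrophoblast, and at 10 days 1 was. At 10 against 6 days 5 of the 10 that passed the filter were higher and none lower (background 3.7% and 0.85%, or 2.18% and 0.5% with no filter). Among the 5, Tpbpb, Prl2c2 and Prl3b1 passed the filter only through the 10-day library, so the count is a description. The 4 Serpinb9 copies summed to a lower level at 10 than at 6 days. Blood and mast cell markers (4 of 10 in the table) summed to 0.0284, 0.00650, 0.814 and 7.37 FPKM. Hba-x, Cma1 and Lyz2 were at 0 in the control and at 0 days. Hba-x alone gave 6.99 FPKM of the sum at 10 days, and Ptprc, Cma1 and Lyz2 did not pass 0.280 FPKM in any library. The part of trophoblast or blood cells in the Serpinb9 levels was not tested. Gzmb, which encodes granzyme B itself, was listed at 0 in all 4 libraries.

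Serpinb1a, an inhibitor of neutrophil elastase and cathepsin G, stood at 1.09, 0.168, 1.29 and 2.87 FPKM. It was low at 0 days and highest at 10 days, 1.73 higher (log2) between these. Serpinb1b and Serpinb1c, its copies at 90.4% and 89.7% identity, did not pass 0.243 FPKM.

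The other Serpin genes include the 3 called higher at 0 days than in the control. Serpinf1 encodes PEDF, a secreted non-inhibitory serpin that supports neurons and restrains vessel growth (chromosome 11, 75409769 to 75422701). It stood at 0.343 FPKM in the control, 30.0 FPKM at 0 days, 12.6 FPKM at 6 days and 20.2 FPKM at 10 days. It was 4.53 higher (log2) at 0 days than in the control, then lower at 6 days (-1.19), the 1 gene of the family called lower in that step. Serpinf2 encodes alpha-2 antiplasmin, the main inhibitor of plasmin, and lies beside it (75431732 to 75439591). It stood at 0.0346, 1.86, 10.6 and 21.7 FPKM, and was called higher at the first 2 steps (1.47 and 2.02, log2). At 10 against 6 days its ratio of FPKM was 2.05, but the log2 difference of 0.97 was not called. With a pseudocount of 0.1 or 0.5 it was. So these neighbours differed most at 0 days, where Serpinf1 was well above Serpinf2, and had similar levels at 10 days, with counting intervals of 19.0 to 21.5 and 20.5 to 22.9 FPKM that overlapped.

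Serpine2 encodes protease nexin 1, which inhibits thrombin and plasminogen activators at the cell surface and is made by neural and mesenchymal cells (chromosome 1, 79794197 to 79861180). It stood at 6.13 FPKM in the control, 19.7 FPKM at 0 days, 47.7 FPKM at 6 days and 49.4 FPKM at 10 days. The first 2 steps passed 2-fold (1.54 and 1.23). The counting intervals at 6 and 10 days, 46.2 to 49.1 and 48.0 to 50.9 FPKM, overlapped, so these 2 levels were not told apart. Serpind1, heparin cofactor II, was listed at 0 in the control and stood at 0.0899, 3.13 and 4.33 FPKM, while Pi4ka, which overlaps it on the opposite strand, stood between 6.35 and 13.1 FPKM. Serpinc1, antithrombin, stood at 0.753, 0.498, 0.744 and 2.05 FPKM, and overlaps Zbtb37 on the opposite strand, at 1.39 to 2.65 FPKM. Serpine3 showed no step, at 0.185 to 0.231 FPKM, and overlaps Ints6 on the opposite strand, at 4.78 to 9.68 FPKM. The part of these overlaps in the levels of Serpind1, Serpinc1 and Serpine3 was not tested. Neuron markers (5 of 11 in the table) summed to 6.07, 6.31, 60.8 and 29.2 FPKM, and fibroblast and matrix markers (5 of 10) to 1.22, 6.74, 52.9 and 116 FPKM. Their part in the levels of Serpinf1 and Serpine2 was not tested.

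The proteases these inhibitors can act on were taken from a list of 63 genes, of which 28 were in the table and 10 passed the filter. At 0 days against the control 3 were higher and 1 lower (background 12.2% and 12.8%). At 6 against 0 days 4 were higher and none lower (8.22% and 4.88%). At 10 against 6 days 1 was higher and none lower (3.7% and 0.85%). The medians of the 10 were 0.35, 0.45 and 0.20 (log2), beside -0.04, 0.01 and 0.02 over all 5885 genes. The most abundant was Ctsl, the lysosomal protease cathepsin L, at 196, 322, 1294 and 1122 FPKM. Tmprss2, a trypsin-like protease of epithelial surfaces, stood at 0.157, 7.72, 39.0 and 64.0 FPKM. It thus had the same order as Spink1 in the ATRA libraries, an order held by 29.4% of all 5885 genes. At 0 days against the control the 2 genes differed in direction (2.91 for Tmprss2 and -0.54 for Spink1, log2). Plg, plasminogen, the target system of Serpinf2, was listed at 0 in the control and stood at 0.0562, 2.08 and 6.14 FPKM. Ctsb, cathepsin B, stood at 41.2, 155, 117 and 128 FPKM, and was thus highest at 0 days like Serpinf1. Of the elastase, cathepsin G, granzyme and related genes of blood cells, Elane, Ctsg, Gzma, Gzmb, Gzmd, Gzmf and Gzmk were listed at 0 in all 4 libraries. Gzmc, Gzme, Gzmg, Mcpt8 and Cma1 were not at 0 throughout but did not pass 0.280 FPKM. Prtn3 passed the filter, with its highest level at 10 days (2.24 FPKM).

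Inhibitors of other families, with receptors and partners, formed a list of 62 genes, with 34 in the table and 18 past the filter. At the 3 steps 6, 7 and 6 were higher (background 12.2%, 8.22% and 3.7%) and 0, 2 and 0 lower (12.8%, 4.88% and 0.85%). The medians were 0.21, 0.81 and 0.65 (log2). Cstb, the cytosolic inhibitor cystatin B, was the most abundant, at 299, 180, 321 and 437 FPKM, lowest at 0 days like Serpinb6a. Kng1, kininogen, a plasma protein with cystatin domains, stood at 0.0437, 2.34, 14.8 and 64.9 FPKM. Fst, follistatin, which has Kazal-like domains and binds activin, stood at 2.75, 5.73, 59.7 and 42.6 FPKM, and its relative Fstl1 at 7.54, 43.9, 58.0 and 59.1 FPKM.

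Genes beside the family gave a comparison within the same chromosome regions. Within 500 kb of the chromosome 13 block, 8 protein-coding genes of other families passed the filter. Of these, 1, the tubulin gene Tubb2b, was higher at 6 than at 0 days. Among all 5885 genes, 8.22% were higher and 4.88% lower in that step. Around the Serpina block 2 of 9 were higher in that step, Fam181a and Ifi27l2b, beside 3 of the 5 Serpina genes. At 6 days against the control, 5 of 9 neighbours (median 1.398, log2) were higher beside 3 of 5 Serpina genes (background 15.3%). At 10 against 6 days, 3 of 9 were higher beside 2 of 5 (background 3.7%). At 10 days against the control, 4 of 9 were higher beside 5 of 5 (background 19.6%). At 10 against 0 days, 3 of 9 were higher beside 5 of 5 (background 14.4%). The 5 Serpina genes passed the filter only through the 6-day and 10-day libraries. At 6 against 0 days, none of 3 neighbours of the chromosome 1 block was higher or lower. Near the Spink genes 1 of 8, Dpysl3, was higher and 1 lower.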

How the data were processed

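Per the submitters' processing notes, reads were handled with Trimmomatic, TopHat and Cufflinks on mm10, with no versions. The deposited values are FPKM, as the file headers say, each library in its own column. No source used here gives the annotation, strand use or filters. FPKM divides by the library total, so abundant transcripts lower all others, and Cufflinks splits fragments between similar genes by a model.

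The table had 10201 rows, and rows of a symbol were summed (177 symbols, none of them a Serpin or Spink gene). Differences were taken on log2(FPKM + 1) and called at 2-fold, among the 5885 symbols that reached 1 FPKM in any library. Each group is 1 library, so no test was run. Genes at 5 FPKM or more are given in full, and of each list at most 4 genes by level. The members and lists were chosen with earlier results of these data known.

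Depth was estimated from 1401 genes with 1 transcript of 800 nt or more: the median of their values between 0.02 and 0.05 FPKM times kb is the worth of 1 fragment. Positions and coding sequences came from GENCODE M21 (mm10) for 61 and 59 genes, and promoters from RefSeq (GRCm38.p6). Near copies share 90% or more of aligned coding bases; protein sequences were not used here. The calling step was run on simulated libraries with counting error only and 4-fold changes planted in genes at 5 FPKM or more. It therefore does not cover changes in lower genes or differences between replicate libraries. Alternatives were pseudocounts of 0.1 and 0.5, no filter, a filter at 5 FPKM, median-ratio scaling over genes at 1 FPKM or more in all libraries, upper-quartile scaling, a 4-fold threshold, and the highest row per symbol. Summing near copies was added after seeing the data. The scripts used Biopython 1.88, matplotlib 3.10.9, scipy 1.17.1, pandas 2.3.3, numpy 2.4.6 and Python 3.11.15.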

Additional observations from a re-analysis of the deposited data

How the results depend on the processing

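No paired analysis was possible because each group is 1 library and no test was made, and no library could be left out. For genes higher at 0 days than in the control (3), a pseudocount of 0.1 gave 6 and a 4-fold threshold 1. For genes lower in that step (1), pseudocounts of 0.1 and 0.5 gave 3 and 2, and summing near copies 2. Of the 1 gene lower at 6 than at 0 days, a 4-fold threshold left 0. For genes higher at 10 than at 6 days (3), pseudocounts of 0.1 and 0.5 gave 8 and 6, and a 4-fold threshold 0. For genes lower in that step (0), pseudocounts of 0.1 and 0.5 gave 3 each, upper-quartile scaling 1 and summing near copies 1, all of them Serpinb9 copies. The 19 genes higher at 10 days than in the control, and the 19 higher than at 0 days, became 11 and 11 with a filter at 5 FPKM, and 11 and 11 at 4-fold. With no filter, 8 genes were highest in the control, 16 at 6 days and 30 at 10 days. With a filter at 5 FPKM, 1 was highest at 6 days and 9 at 10 days, and with near copies summed 1 was highest at 6 days. The 15 genes higher at 6 than at 0 days, and the 15 higher than in the control, stayed within 1.5 times under all alternatives. The first count ran from 10 (4-fold threshold) to 19 (pseudocount of 0.1). The count against the control ran from 10 (filter at 5 FPKM) to 18 (pseudocount of 0.1).

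Median-ratio and upper-quartile scaling moved the median of all genes by 0.11 and 0.18 (log2) at 0 days against the control. Under upper-quartile scaling Serpine2 turned from 0.05 to -0.08 at 10 against 6 days, Serpinb6a passed 2-fold at 6 days against the control (0.77 to 1.01), Serpinb1a passed it at 6 against 0 days (0.97 to 1.01), and Serpinb11 (10 days against the control) and Serpinc1 (10 against 0 days) fell just below it. Serpinb11 passed it at 10 against 0 days under median-ratio scaling. Shares by clade do not change with scaling. Depth limits most the values near the level of 3 fragments.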
